A study of Mus musculus with 8 samples.

Results

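The subject is the amount of mRNA in mouse embryonic fibroblasts (MEF) that overexpress the tRNA methyltransferase METTL1 with its partner WDR4, set against the same cells with an empty vector. The members are all 9307 genes with values in the table of the study, read in its 4 input libraries, out of 8 libraries in all. The other 4 libraries hold ribosome-protected fragments and were not used here. MEF are connective tissue cells from mouse embryos, and all cells here also express the SV40 T antigen, which immortalises them by blocking p53 and the RB proteins. One group (EV, 2 input libraries) was transduced with an empty vector. The other (OE, 2 input libraries) was transduced with pBabe retroviral vectors for wild-type METTL1 and for WDR4. Both kinds of cells were stable clones kept under puromycin at 2.5 µg/mL and G418 at 400 µg/mL, which was left out during expansion and lysis, and both received cycloheximide before lysis. Input RNA was depleted of ribosomal RNA and made into libraries with a commercial ribosome profiling kit. The labels give neither the number of clones nor whether the 2 libraries of a group came from separate cultures, so p-values speak only of the spread among these libraries, possibly technical, and a difference between clones cannot be told apart from an effect of METTL1 and WDR4.

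METTL1 places a methyl group on a guanosine in the variable loop of a subset of tRNAs, and WDR4 holds the enzyme on its substrate. The mark is known to stabilise some of these tRNAs, so most work on the complex concerns translation. The amount of each mRNA, which input libraries measure, is set by transcription and decay. Fibroblasts are known above all for making the extracellular matrix, the network of collagens, glycoproteins and proteoglycans around cells, and the proteases that cut it.

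Values are size-factor-normalized reads as deposited, and a log2 fold change is OE against EV of log2(value + 1), a scale on which the change of a gene with few reads comes out too small. The genes listed took 365962 and 371520 reads in the EV libraries and 294367 and 357305 in the OE libraries. A median gene held 15 to 19 reads per library. These are shallow libraries, so 1 read is worth a value between 1.27 and 1.61. Every gene in the table had at least 1 read in each input library, so a gene without reads in any 1 of them is absent. Pearson correlations of log2 values were 0.939 between the EV libraries, 0.932 between the OE libraries and 0.920 to 0.928 between groups. The first principal component (40.7% of the variance) separated EV from OE.

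The overexpressed genes were read first. Mettl1 (chromosome 10, 127041414 to 127046365, plus strand, build mm10) had values of 16.7 and 14.01 in EV and 33.7 and 15.98 in OE (log2 fold change 0.58, SE 0.40, adjusted p = 0.652). One OE library lay above both EV libraries and the other lay between them. Wdr4 (chromosome 17, 31494322 to 31519980, minus strand) had values of 16.7 and 26.7 in EV and 24.1 and 42.6 in OE (log2 fold change 0.58, SE 0.34, adjusted p = 0.585). Its groups overlapped too. These values rest on 11 to 32 reads per library. Summed over libraries and scaled by the size factors, the OE to EV ratio was 1.57 for both, with exact 95% counting intervals of 0.898 to 2.77 for Mettl1 and 0.991 to 2.52 for Wdr4. Neither gene passed the threshold, so the input libraries do not show the overexpression that the labels state. The labels do not give the species of the vectors' sequences, and how a human sequence would have been counted is not known, so these values check the labels only if the vectors carry mouse sequence.

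Which mRNAs differed in amount between the OE and EV cells was tested with limma over all genes. At an adjusted p under 0.05, 47 genes passed (0.505% of those tested), of which 29 were higher in OE (0.312%) and 18 were lower (0.193%). In all 47 the groups did not overlap, but they were picked by a test on these same values, so this is no separate result. Over all genes 21.2% had both OE libraries above both EV libraries and 19.4% had both below. A log2 fold change above 0 was found for 49.7% of all genes. An unadjusted p under 0.05 was found for 972 genes (10.4%), 480 of them higher (5.16%) and 492 lower (5.29%). EdgeR's quasi-likelihood test on the recovered reads called 64 genes (0.688%), which held all 47. DESeq2 called 4 genes, all higher, namely Spp1, Col6a3, Tes and Gpc1, and after quantile normalization limma called none, with 832 genes at an unadjusted p under 0.05. Of the gene lists described below, collagens and matrix glycoproteins and proteoglycans had 3 higher calls each, and translation factors had 2 lower calls. The calls of each list stand against the shares over all genes, 0.312% higher and 0.193% lower. The median mean value was 84.6 for the higher genes and 111 for the lower ones, against 23.4 over all genes. Without the first OE library no gene passed by limma or edgeR, with 661 genes at an unadjusted p under 0.05 by limma and 510 by edgeR. The same held without the second, with 790 and 524 genes. In these fits the lone OE library is assumed to vary like the EV libraries. Without the first EV library 49 genes passed, which held 24 of the 29 higher genes and 7 of the 18 lower ones. Without the second 33 passed, which held 19 and 5. All 47 genes kept the direction of their change in each of the 4 limma fits without 1 library. This follows from groups that do not overlap, so it is no further check. In bulk RNA a smaller share of cells that express a gene and less RNA per cell cannot be told apart.

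**Figure D1:**
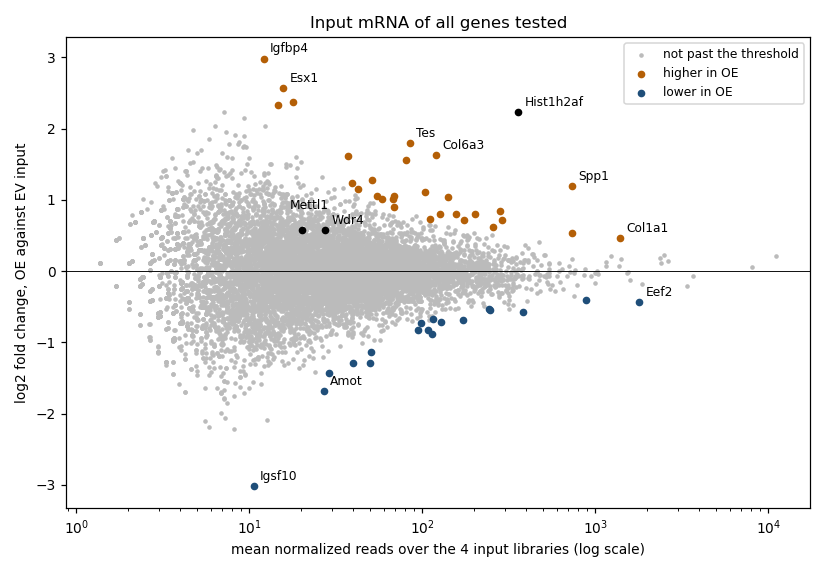
Mean normalized reads over the 4 input libraries (x axis, log scale) and log2 fold change of OE against EV (y axis) for all 9307 genes, with the 29 higher and 18 lower genes in colour and Mettl1, Wdr4 and Hist1h2af in black. Spp1 and Col1a1 stand out among genes with high values, and the spread of the grey points widens to the left, where a value rests on few reads.

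The genes with higher mRNA in OE included several that build the matrix or signal from it. Spp1, which encodes osteopontin, a secreted phosphoprotein that binds integrins, had values of 413 and 481 in EV and 1012 and 1029 in OE (Spp1 (ENSMUSG00000029304.14), chromosome 5, 104435118 to 104441050, plus strand). It rose with a log2 fold change 1.19, SE 0.10, adjusted p = 2.72e-08, which was the smallest p of all genes. The OE libraries lay close to each other and far above both EV libraries. Tnc, the matrix glycoprotein tenascin-C of wounds and tumour stroma, had values of 53.9 and 35.7 in EV and 91.5 and 93.2 in OE (log2 fold change 1.06, adjusted p = 0.0125). Both OE libraries were above both EV libraries, and Tnc rose. Of the 12 measured members of a list of 23 matricellular proteins these were the 2 calls, both higher (0.312% of all genes). The list median was a log2 fold change of 0.17, against -0.0038 over all genes, with 8 of 12 above 0 (49.7% of all genes). Thbs1, Sparc and Ccn1 of that list did not pass.

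**Figure D2:**
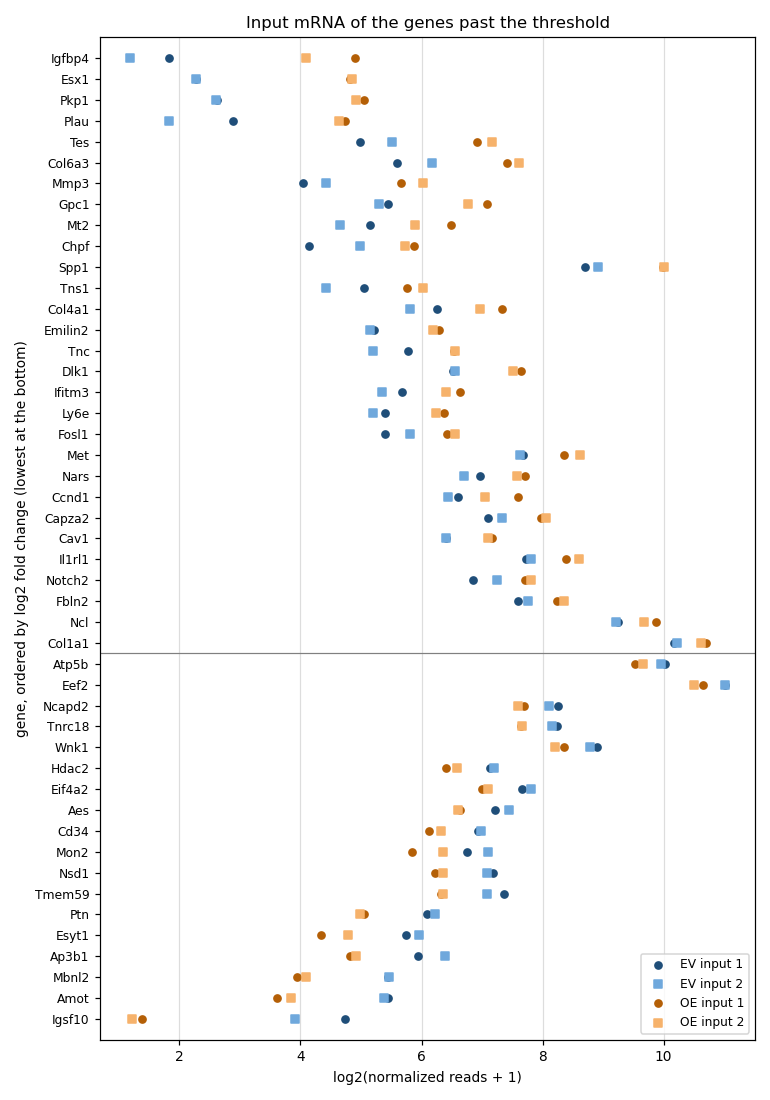
The value of each input library (x axis, log2 of normalized reads + 1) for the 47 genes past the threshold, ordered by log2 fold change, with EV in blue and OE in orange. In every row above the grey line both OE points lie to the right of both EV points, and in every row below it to their left.

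The sequence before the start of 3 of the higher genes is shown because they differ in motif content: an AP-1 site, bound by the FOS and JUN factors, is a well known element of matrix protease promoters. The motif searched was TGANTCA on both strands, with any base in the middle, which is wider than the usual AP-1 site with G or C there. Each run gives the 250 bases before the RefSeq start, 5′ to 3′ on the gene's strand, from RefSeq on build GRCm38.p6. Capitals mark a match.
Mmp3, chr9:7445572-7445821, plus strand: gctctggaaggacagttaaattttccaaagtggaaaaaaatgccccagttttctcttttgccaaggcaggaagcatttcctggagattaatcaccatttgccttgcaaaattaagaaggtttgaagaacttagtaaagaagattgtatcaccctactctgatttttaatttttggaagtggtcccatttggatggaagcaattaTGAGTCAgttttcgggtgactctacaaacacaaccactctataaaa
Ifitm3, chr7:141010745-141010994, minus strand: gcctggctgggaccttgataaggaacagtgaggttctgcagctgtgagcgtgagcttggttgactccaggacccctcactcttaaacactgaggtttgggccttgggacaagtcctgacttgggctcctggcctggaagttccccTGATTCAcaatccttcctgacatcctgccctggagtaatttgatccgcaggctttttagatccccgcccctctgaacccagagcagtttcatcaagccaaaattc
Spp1, chr5:104434861-104435110, plus strand: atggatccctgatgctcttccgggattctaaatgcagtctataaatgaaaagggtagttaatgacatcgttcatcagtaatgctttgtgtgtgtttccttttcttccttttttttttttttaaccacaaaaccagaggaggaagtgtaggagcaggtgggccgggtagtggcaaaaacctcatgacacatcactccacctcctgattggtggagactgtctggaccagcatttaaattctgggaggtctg
The match begins at position -46 in Mmp3, where the middle base is G, and at position -105 in Ifitm3, where it is T. Positions are counted from the start, and Spp1 has no match. The shares that follow count every middle base alike. Of the higher genes 21 have an entry in the promoter table, and 5 of these hold the motif (23.8%), namely Met, Mmp3, Esx1, Mt2 and Ifitm3. None of the 15 lower genes with an entry does, and over all 7425 genes with an entry the share is 3.50%. The sequence TATAAA, the core of the TATA box, was found in 5 of the 21 (23.8%), in 2 of the 15 (13.3%) and in 5.63% of all. A motif like that of C/EBP and ATF dimers, TGATGNAA, was found in 2 of the 21 (9.52%), 1 of the 15 (6.67%) and 1.83% of all. These shares are descriptions of letters in a window, and no factor was measured at these sites.

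Collagens are the main fibres and sheets of the matrix, and 3 of the 19 measured chains out of 25 listed rose, with none lower. Calls made up 0.312% (higher) and 0.193% (lower) of all genes. Col6a3, a chain of the beaded type VI filaments, had values of 47.5 and 71.3 in EV and 170.2 and 194 in OE (Col6a3 (ENSMUSG00000048126.16), chromosome 1, 90765923 to 90843971, minus strand). The lowest OE library was more than 2-fold above the highest EV library, and Col6a3 rose (log2 fold change 1.63, SE 0.18, adjusted p = 6.79e-06). Col6a3 lies with Gpc1, given in the next paragraph, in a run of genes on chromosome 1 described further on. Col4a1, a chain of the basement membrane network, had values of 75.7 and 54.8 in EV and 161 and 124 in OE (log2 fold change 1.12, SE 0.19, adjusted p = 0.00272). Its partner chain Col4a2, named after its values were seen, lies beside it on chromosome 8 and had values of 30.8 and 24.2 in EV and 54.6 and 58.6 in OE (log2 fold change 1.02, adjusted p = 0.0675). The groups did not overlap for either chain, but Col4a2 did not pass. Col1a1, a chain of the main fibrillar collagen, had values of 1158 and 1187 in EV and 1662 and 1569.6 in OE (log2 fold change 0.46, SE 0.087, adjusted p = 0.00648), whereas Col1a2, the other chain of the same fibre, had 1106 and 1107 in EV and 1232 and 1186 in OE (log2 fold change 0.13, adjusted p = 0.654). Col1a1 rose at high read numbers and Col1a2 did not pass. The median of the collagen list was 0.25, with 11 of 19 above 0, 10 with both OE libraries above both EV libraries and 4 with both below (over all genes 21.2% and 19.4%). No gene of the 19 measured collagen processing enzymes and chaperones passed (list median 0.12). The 2 with the highest values were P4hb, which hydroxylates proline (log2 fold change 0.19, adjusted p = 0.608), and Pcolce, which enhances cleavage of the collagen propeptide (log2 fold change 0.13, adjusted p = 0.723).

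Among 31 measured glycoproteins and proteoglycans of 43 listed, 3 rose and 1 fell, with a list median of 0.18. Of all genes 0.312% were called higher and 0.193% lower. Gpc1, glypican-1, a heparan sulfate proteoglycan held on the cell surface, had values of 42.4 and 38.2 in EV and 135 and 108 in OE (chromosome 1, 92831645 to 92860779, plus strand; log2 fold change 1.56, SE 0.20, adjusted p = 3.71e-05). Both OE libraries were more than 2-fold above both EV libraries. Of its longest transcript, 77.1% of 28-base stretches are unique to it, so part of its reads could be shared. Fbln2, fibulin-2 of elastic fibres and basement membranes, had values of 191 and 215 in EV and 300.3 and 325 in OE (log2 fold change 0.62, adjusted p = 0.0121). Emilin2, an elastin microfibril glycoprotein, had values of 35.9 and 34.4 in EV and 77.1 and 71.9 in OE (log2 fold change 1.06, adjusted p = 0.016). In both genes the groups were well apart, and both rose. The member that fell was Igsf10, a large secreted immunoglobulin superfamily protein, with values of 25.7 and 14.01 in EV and 1.61 and 1.33 in OE (chromosome 3, 59316735 to 59344394, minus strand; log2 fold change -3.02, SE 0.56, adjusted p = 0.00616). It had 20 and 11 reads in EV and 1 read in each OE library, which gives an OE to EV ratio of 0.0735 with an exact 95% counting interval of 0.00852 to 0.289. Chpf, which polymerises chondroitin, was named after its values were seen and rose from 16.7 and 30.6 to 57.8 and 51.9 (log2 fold change 1.24, adjusted p = 0.0446).

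Proteases that cut the matrix, or activate enzymes that do, and their inhibitors gave 2 higher calls and no lower one among 27 measured members. Over all genes 0.312% were called higher and 0.193% lower. The list median was 0.19, and -0.064 without the first EV library. Of the 27, 9 had both OE libraries above both EV libraries and 6 had both below (21.2% and 19.4% of all genes). At an unadjusted p under 0.05 by limma 6 were higher and 3 lower (5.16% and 5.29% of all genes). Mmp3, stromelysin-1, whose promoter is shown above, had values of 15.4 and 20.4 in EV and 49.8 and 63.9 in OE (log2 fold change 1.62, SE 0.29, adjusted p = 0.00614). Plau, urokinase, which turns plasminogen into plasmin, had values of 6.42 and 2.55 in EV and 25.7 and 23.96 in OE (log2 fold change 2.33, SE 0.50, adjusted p = 0.0189). Both genes rose without overlap of the groups. Plau had 7 EV reads in all, and its OE to EV ratio of 5.53 has an exact 95% counting interval of 2.41 to 14.8. The protease inhibitor Timp1, named after its values were seen, passed with edgeR but not with limma, at values of 79.6 and 68.8 in EV and 112 and 129 in OE (log2 fold change 0.70, adjusted p = 0.0654). The 3 lower members, also named after their values were seen, were Adam9, Adam8 and Mmp11 (log2 fold changes -0.54, -1.55 and -0.95). None of these passed.

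Few adhesion genes passed. Of the genes in this paragraph and the next, Tes, Met, Capza2 and Cav1 are neighbours on chromosome 6, in a run of genes described further on. Tes, testin, a LIM domain protein of focal adhesions and stress fibres, had values of 30.8 and 44.6 in EV and 120.4 and 142 in OE (Tes (ENSMUSG00000029552.19), chromosome 6, 17065149 to 17105828, plus strand). It rose about as much as Col6a3 (log2 fold change 1.79, SE 0.21, adjusted p = 7.6e-06), with both OE libraries far above EV. Tns1, tensin-1, which links integrins to actin, had values of 32.1 and 20.4 in EV and 52.99 and 63.9 in OE (log2 fold change 1.15, SE 0.27, adjusted p = 0.0446). These were the only 2 calls among 37 measured integrin and focal adhesion genes by limma (0.312% of all genes were called higher). The list median was 0.05. Pkp1, plakophilin-1 of desmosomes, had values of 5.13 and 5.09 in EV and 32.1 and 29.3 in OE (log2 fold change 2.37, SE 0.44, adjusted p = 0.00616). It rested on 4 reads in each EV library and 20 and 22 in OE, so the OE to EV ratio was 5.98, with an exact 95% counting interval of 2.77 to 14.7. No other of the 18 measured junction and cadherin genes passed, and their median was -0.13.

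Met, the receptor of hepatocyte growth factor, had values of 203 and 197 in EV and 328 and 393 in OE (chromosome 6, 17463800 to 17573980, plus strand; log2 fold change 0.84, SE 0.12, adjusted p = 0.00046). Notch2, a receptor of Delta and Jagged ligands, had values of 114 and 150.3 in EV and 209 and 224 in OE (log2 fold change 0.72, SE 0.15, adjusted p = 0.0137). Both rose, and they were the 2 calls among 45 measured receptor kinases and growth factor receptors by limma (list median 0.15). The share called higher over all genes was 0.312%. Il1rl1, the receptor of interleukin-33, had values of 212 and 224 in EV and 334 and 386 in OE (log2 fold change 0.72, SE 0.12, adjusted p = 0.00288). The groups were apart by more than the spread within either in all 3 receptors. Capza2, a subunit of the protein that caps actin filaments, had values of 136 and 160.5 in EV and 249 and 266 in OE (log2 fold change 0.80, SE 0.14, adjusted p = 0.00288), and it rose. Cav1, caveolin-1, the coat protein of caveolae, was named after its values were seen and also rose, with 83.4 and 84.1 in EV and 143 and 136 in OE (log2 fold change 0.73, adjusted p = 0.0267). No gene of the 33 measured actin and myosin genes passed (median -0.019). Actb had 2282 and 2326 in EV and 2810.1 and 2589 in OE (log2 fold change 0.23, adjusted p = 0.262) and Myh9 had 909 and 842 in EV and 918 and 772 in OE (log2 fold change -0.055, adjusted p = 0.887).

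Secreted and imprinted signals moved in both directions. Igfbp4, which binds insulin-like growth factors, had values of 2.57 and 1.27 in EV and 28.9 and 15.98 in OE (chromosome 11, 99041244 to 99054392, plus strand; log2 fold change 2.98, SE 0.55, adjusted p = 0.00615), the largest rise of all called genes. Its EV values are 2 reads and 1 read, so the ratio of 11.4 has an exact 95% counting interval of 3.54 to 58.3. It was the only call among 12 measured genes of the IGF axis by limma. Dlk1, a paternally expressed transmembrane protein that holds back differentiation of preadipocytes, had values of 91.1 and 92.97 in EV and 199 and 181 in OE (log2 fold change 1.04, SE 0.15, adjusted p = 0.000361). The 2 libraries of each group were close together, and Dlk1 was the 1 call among 22 measured imprinted genes, whose median was -0.010. Ptn, pleiotrophin, a heparin-binding growth factor, had values of 66.7 and 73.9 in EV and 32.1 and 30.6 in OE (log2 fold change -1.14, SE 0.23, adjusted p = 0.0125). Ptn fell, and it was the only call among 35 measured growth factors and secreted signals (median 0.11).

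Regulators of transcription and the cell cycle gave single calls. Fosl1, a FOS family subunit of AP-1, had values of 41.1 and 54.8 in EV and 85.1 and 93.2 in OE (log2 fold change 0.89, SE 0.21, adjusted p = 0.0413). It rose and was the 1 call among 29 measured immediate-early, SRF and YAP target genes. Their median was 0.41, the highest of the lists with 10 or more measured members, with 22 above 0 (49.7% of all genes). Of the 29, 17 had both OE libraries above both EV libraries and 3 had both below (21.2% and 19.4% of all genes). Fosl1 shares 57.2% of its exon bases with a gene on the other strand, and the use of strand in counting is not given in the sources used here, so its value is uncertain. Ccnd1, cyclin D1, which starts the passage through G1, had values of 96.3 and 85.3 in EV and 191 and 132 in OE (log2 fold change 0.80, SE 0.17, adjusted p = 0.0197). It rose, with 23.4% of its exon bases shared with an antisense gene, and no other of the 26 measured G1 genes passed (list median -0.0041). Esx1, an X-linked homeobox factor known from placenta and testis, had values of 3.85 and 3.82 in EV and 27.3 and 27.96 in OE (chromosome X, 137115397 to 137122083, minus strand; log2 fold change 2.57, SE 0.47, adjusted p = 0.00615). These are 3 reads in each EV library and 17 and 21 in OE, so the OE to EV ratio was 7.21, with an exact 95% counting interval of 3.02 to 20.9. No other of the 53 measured homeobox and mesenchymal factors passed with limma. Nr2f2, a nuclear receptor of mesenchymal cells named after its values were seen, passed with edgeR (adjusted p = 0.0445) but not with limma, at 82.2 and 89.2 in EV and 138 and 130.5 in OE (log2 fold change 0.64, adjusted p = 0.0712).

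Ifitm3, an interferon-inducible membrane protein that blocks virus entry, had values of 50.1 and 39.5 in EV and 97.95 and 83.9 in OE (log2 fold change 1.01, SE 0.21, adjusted p = 0.0133). It rose, and it was the 1 call among 19 measured genes of the type I interferon response. Of these, 14 were above 0 (49.7% of all genes), and their median was 0.32. Without the first EV library that median was 0.051. Ly6e, another interferon-responsive membrane protein, and Mt2, a metallothionein that binds zinc and copper, were named after their values were seen. Ly6e rose from 41.1 and 35.7 to 81.9 and 74.6 (log2 fold change 1.01, adjusted p = 0.0197). Mt2 rose from 34.7 and 24.2 to 88.3 and 58.6 (log2 fold change 1.28, adjusted p = 0.0114), but it shares 73.5% of its exon bases with an antisense gene. Ncl, nucleolin, an abundant nucleolar protein of ribosome assembly, had values of 607 and 592 in EV and 936 and 813 in OE (log2 fold change 0.54, SE 0.10, adjusted p = 0.00615). It rose by a small step at high read numbers, and its groups did not overlap.

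Aminoacyl-tRNA synthetases join amino acids to tRNAs, the step after the tRNA modification that METTL1 makes. Nars, the cytosolic synthetase for asparagine, had values of 125 and 103 in EV and 209 and 190.4 in OE (log2 fold change 0.81, SE 0.15, adjusted p = 0.00615). It rose and was the only call by limma among the 20 measured cytosolic synthetases and their cofactors. Of the 20, 17 had a fold change above 0, 12 had both OE libraries above both EV libraries, 7 were higher at an unadjusted p under 0.05 and none lower. Their median was 0.26. Over all genes 21.2% have OE above EV without overlap, and 5.16% were higher at an unadjusted p under 0.05. The 17 measured mitochondrial synthetases had no call and a median of -0.11 (0.13 without the first EV library and 0.053 without the first OE library), with Tars2 at 46.2 and 52.2 in EV and 40.1 and 42.6 in OE.

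Enzymes that make serine, glycine, asparagine, proline and alanine had no call among 22 measured members, with a median of 0.34, 16 above 0, 13 with OE above EV without overlap and 1 the other way (over all genes 21.2% and 19.4%). Psat1, the phosphoserine aminotransferase, had values of 136 and 168 in EV and 193 and 232 in OE (log2 fold change 0.48, adjusted p = 0.147), and Shmt2, which splits serine in mitochondria, had 113 and 112 in EV and 130.1 and 113 in OE (log2 fold change 0.11, adjusted p = 0.859). Asns, asparagine synthetase, named after its values were seen, had 68.03 and 62.4 in EV and 109 and 109 in OE (log2 fold change 0.74, adjusted p = 0.0536) and passed with edgeR. The groups of Psat1 and Asns did not overlap. Those of Shmt2 barely missed overlap, with 112.96 as the higher EV value and 113.16 as the lower OE value. It had 88 and 88 reads in EV and 81 and 85 in OE. No gene passed among 14 amino acid transporters (median 0.25) or 19 factors of the integrated stress response (median 0.24). Without the first OE library the median of the latter was 0.019, or -0.015 by edgeR. Atf4, the transcription factor at the centre of that response, had 118 and 140.1 in EV and 173 and 128 in OE (log2 fold change 0.21, adjusted p = 0.695), and Cebpb had 73.2 and 68.8 in EV and 97.95 and 71.9 in OE (log2 fold change 0.24, adjusted p = 0.717). Both overlapped between groups. Slc38a2, a transporter of small neutral amino acids, had 159 and 153 in EV and 130.1 and 136 in OE (log2 fold change -0.23, adjusted p = 0.613), lower in both OE libraries, and Slc38a10 had 88.6 and 72.6 in EV and 91.5 and 99.8 in OE (log2 fold change 0.25, adjusted p = 0.663).

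Of the lower mRNAs, the one with the most reads encodes a translation factor. Eef2, the elongation factor that moves the ribosome along the mRNA, had values of 2074 and 2057 in EV and 1603 and 1451 in OE (Eef2 (ENSMUSG00000034994.10), chromosome 10, 81176631 to 81182498, plus strand; log2 fold change -0.44, SE 0.085, adjusted p = 0.00931). Eif4a2, a helicase that opens mRNA for initiation, had values of 202 and 223 in EV and 127 and 136 in OE (chromosome 16, 23107444 to 23114136, plus strand; log2 fold change -0.69, SE 0.14, adjusted p = 0.0125). Both genes fell, with the OE libraries below both EV libraries. Of their longest transcripts, 73.0% and 77.5% of 28-base stretches are unique. No other of the 45 measured translation factors passed, and the median of the list was 0.028. The share called lower over all genes was 0.193%. None of the 54 measured cytosolic ribosomal proteins passed with limma, and their median was -0.014. Rps15, named after its values were seen, passed with edgeR (adjusted p = 0.0498) but not with limma, at 375 and 399 in EV and 300.3 and 257 in OE (log2 fold change -0.48, adjusted p = 0.063). Rpl8 had 979 and 1066 in EV and 1019.6 and 992 in OE (log2 fold change -0.023, adjusted p = 0.957) and Rplp0 had 965 and 968 in EV and 967 and 876 in OE (log2 fold change -0.071, adjusted p = 0.84), with overlap of the groups in both.

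The next 4 lower genes are set together by their known roles at membranes, and 3 of them, Tmem59, Esyt1 and Mon2, are on none of the lists. Ap3b1, a subunit of the adaptor that sends cargo to lysosomes and related organelles, had values of 60.3 and 82.8 in EV and 27.3 and 29.3 in OE (chromosome 13, 94358960 to 94566317, plus strand; log2 fold change -1.29, SE 0.24, adjusted p = 0.00662). Both OE libraries were far below the lower EV value. It was the only call among 36 measured coat and adaptor genes, of which 11 were above 0 and 13 had OE below EV without overlap, against 19.4% of all genes (median -0.15). Tmem59, a Golgi and lysosomal membrane protein, had values of 163 and 134 in EV and 78.7 and 81.2 in OE (log2 fold change -0.88, SE 0.17, adjusted p = 0.00648). Esyt1, which tethers the endoplasmic reticulum to the plasma membrane, had values of 52.6 and 61.1 in EV and 19.3 and 26.6 in OE (log2 fold change -1.29, SE 0.27, adjusted p = 0.0184). Mon2, a Golgi and endosome trafficking protein, had values of 107 and 136 in EV and 56.2 and 81.2 in OE (log2 fold change -0.83, adjusted p = 0.0446). All 3 fell, with OE below EV in every library. The 41 measured autophagy and lysosome genes had no call and a median of -0.032, with Psap at 365 and 334 in EV and 291 and 272 in OE (log2 fold change -0.31, adjusted p = 0.307) and Lamp1 at 388 and 353 in EV and 381 and 366 in OE (log2 fold change 0.013, adjusted p = 0.978).

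Of the chromatin regulators and of the RNA-binding regulators listed, 1 each fell with limma, and 3 other nuclear proteins are given beside them. Hdac2, a histone deacetylase, had values of 139 and 146 in EV and 83.5 and 94.5 in OE (log2 fold change -0.68, adjusted p = 0.0491). Nsd1, which methylates lysine 36 of histone H3, had values of 144 and 134 in EV and 73.9 and 81.2 in OE (log2 fold change -0.83, SE 0.17, adjusted p = 0.011). Both fell without overlap, and Hdac2 was the 1 call by limma among 54 measured chromatin regulators, a list that does not hold Nsd1. EdgeR also called Smarcc2 of that list, whose values are given further on. Of the 54, 16 were above 0, 18 had OE below EV without overlap and 11 had OE above (19.4% and 21.2% of all genes), with a median of -0.11. Tnrc18, a large nuclear protein, had values of 302 and 283 in EV and 199 and 201 in OE (log2 fold change -0.54, adjusted p = 0.0362). Aes, a corepressor of the Groucho family that lacks its repeat domain, had values of 148 and 173 in EV and 97.95 and 95.9 in OE (log2 fold change -0.72, SE 0.16, adjusted p = 0.0222). Mbnl2, a muscleblind splicing factor, had values of 42.4 and 43.3 in EV and 14.5 and 15.98 in OE (log2 fold change -1.44, SE 0.32, adjusted p = 0.0267). The OE values of these 3 were below both EV values, and Mbnl2 was the only call among 43 RNA-binding regulators (median 0.026).

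Single genes of other pathways fell too. Amot, angiomotin, a junction protein that binds YAP, had values of 42.4 and 40.8 in EV and 11.2 and 13.3 in OE (chromosome X, 145446425 to 145505181, minus strand; log2 fold change -1.68, SE 0.34, adjusted p = 0.0121), and it was the only call among 24 measured Hippo pathway genes (median 0.0037). Wnk1, a kinase that controls chloride transporters, had values of 478 and 442 in EV and 324 and 293 in OE (log2 fold change -0.57, SE 0.11, adjusted p = 0.00955). Both were lower in each OE library than in either EV library. Ncapd2, a subunit of condensin I, which folds chromosomes for division, had values of 304 and 275 in EV and 206 and 193 in OE (log2 fold change -0.54, adjusted p = 0.0446). It was the only call among 56 measured mitosis genes, of which 14 were above 0, 25 had OE below EV without overlap and 10 were lower at an unadjusted p under 0.05 with none higher (median -0.19). Over all genes 19.4% had OE below EV without overlap, and 5.29% were lower at an unadjusted p under 0.05. Atp5b, the catalytic subunit of mitochondrial ATP synthase, had values of 1035 and 989.6 in EV and 734 and 803 in OE (log2 fold change -0.40, adjusted p = 0.0467). It was the 1 call among 67 measured nuclear-encoded genes of oxidative phosphorylation (median 0.041). Cd34, a surface sialomucin of progenitor cells, was named after its values were seen and fell from 120.7 and 124.8 to 69.1 and 78.5 (log2 fold change -0.73, adjusted p = 0.0446).

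Several lists had no call by limma. The 49 measured DNA replication genes had a median of -0.073, with Top2a at 483 and 535 in EV and 384 and 443 in OE (log2 fold change -0.30, adjusted p = 0.284) and Mcm7 at 216 and 210.1 in EV and 194 and 176 in OE (log2 fold change -0.20, adjusted p = 0.621). Both were lower in the OE libraries without passing. The 38 cholesterol and fatty acid synthesis genes had a median of -0.18, with Srebf2 at 344 and 329.9 in EV and 281 and 293 in OE (log2 fold change -0.23, adjusted p = 0.495) and Fasn at 472 and 396 in EV and 525 and 443 in OE (log2 fold change 0.16, adjusted p = 0.669). EdgeR called 1 of the 38, Hacd4, an enzyme of fatty acid elongation named after its values were seen (adjusted p = 0.0368, not passing with limma), at 17.97 and 24.2 in EV and 3.21 and 5.33 in OE (log2 fold change -2.08, adjusted p = 0.0507). The 28 NRF2 and redox genes had a median of -0.10, with Fth1 at 797 and 732 in EV and 766 and 734 in OE and Txn1 at 181 and 177 in EV and 178 and 149 in OE. Groups overlapped for Fasn, Fth1 and Txn1. The 51 measured tRNA modification enzymes other than METTL1 and WDR4 had a median of 0.09, with Nsun2 at 164 and 145 in EV and 154 and 156 in OE and Elp2 at 93.7 and 71.3 in EV and 99.6 and 99.8 in OE (log2 fold change 0.28, adjusted p = 0.614). Glycolysis had a median of 0.11 over 19 genes (-0.0031 by edgeR without the second OE library), with Pkm at 362 and 383 in EV and 403 and 429 in OE (log2 fold change 0.16, adjusted p = 0.654) and Eno1 at 202 and 209 in EV and 223 and 232 in OE (log2 fold change 0.15, adjusted p = 0.738). In both glycolytic genes the OE libraries were above the EV libraries without passing. The 25 measured chaperones and stress genes of the endoplasmic reticulum had a median of 0.18, with Calr at 322 and 363 in EV and 409 and 410.0 in OE (log2 fold change 0.26, adjusted p = 0.403) and Hsp90b1 at 481 and 479 in EV and 443 and 481 in OE (log2 fold change -0.057, adjusted p = 0.891). The 21 cytosolic chaperones had a median of 0.092, with Tcp1 at 439 and 498 in EV and 477 and 518 in OE and Hsp90ab1 at 1551 and 1529.6 in EV and 1549.5 and 1489.8 in OE. Calr was higher in both OE libraries, while the other 3 chaperones overlapped between groups.

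The 22 measured p53 targets had a median of 0.14, with Plk2 at 112 and 103 in EV and 153 and 142 in OE (log2 fold change 0.45, adjusted p = 0.222) and Trp53 itself at 118 and 134 in EV and 127 and 144 in OE (log2 fold change 0.10, adjusted p = 0.861). Axon guidance and neuronal genes had a median of 0.065 over 37, with Slit2, a secreted guidance cue, at 125 and 124 in EV and 175 and 198 in OE (log2 fold change 0.58, adjusted p = 0.062) and Plxnb2 at 263 and 329.9 in EV and 273 and 241 in OE (log2 fold change -0.20, adjusted p = 0.618). Slit2 passed with edgeR, and its groups did not overlap. Calcium pumps and channels had a median of -0.025 over 24, with Atp2a2 at 258 and 289 in EV and 286 and 312 in OE and Piezo1 at 267 and 284 in EV and 278 and 259.6 in OE. The 7 measured mitochondrially encoded mRNAs had a median of 0.14, with mt-Cytb at 2577 and 2442 in EV and 2764 and 2765 in OE (log2 fold change 0.14, adjusted p = 0.569) and mt-Nd2 at 3541 and 4007 in EV and 3306 and 3934 in OE (log2 fold change -0.063, adjusted p = 0.85). Of these last 4 genes, mt-Cytb was higher in both OE libraries and the other 3 overlapped.

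**Figure D3:**
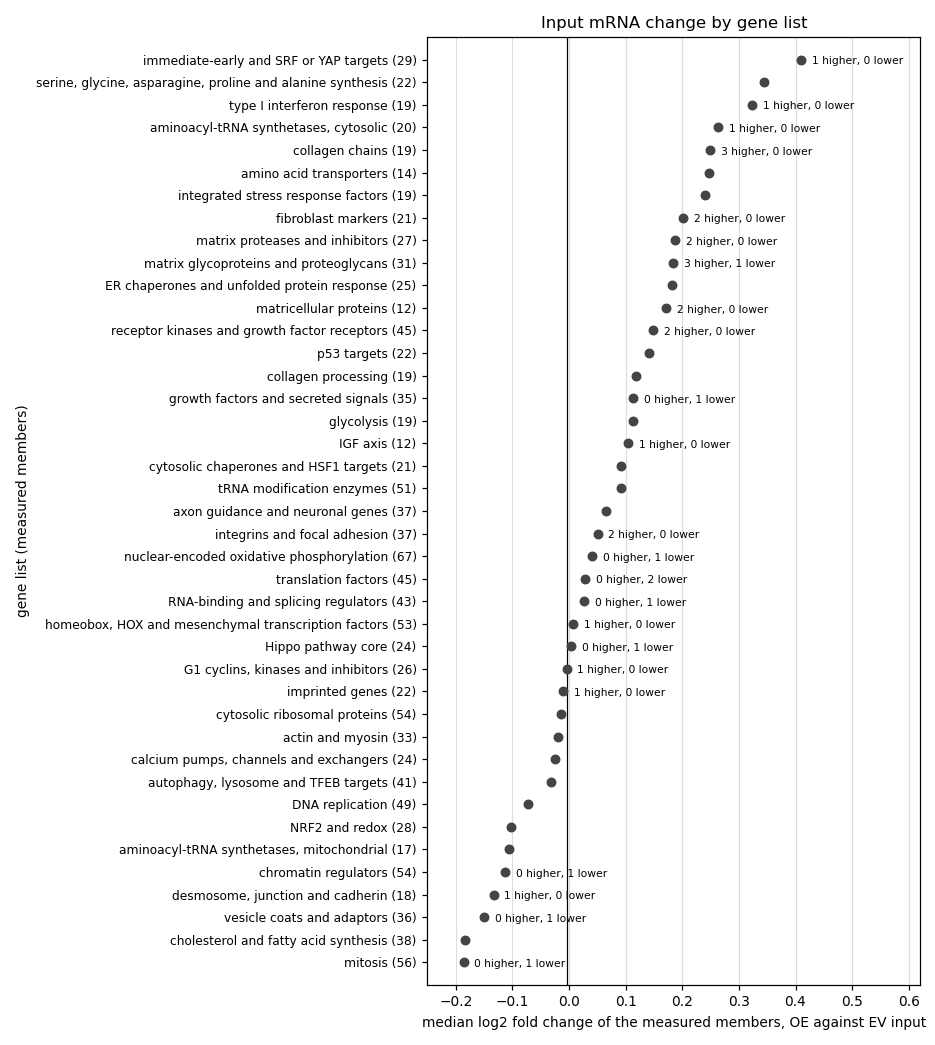
Median log2 fold change of OE against EV (x axis) of the 41 gene lists with 10 or more measured members (their number in brackets), with the number of genes past the threshold beside the point and the median of all genes as a vertical line. Immediate-early genes stand highest at 0.41 and mitosis genes lowest at -0.19, and each list holds at most 4 calls.

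The label of the cells was checked against markers. Of 25 fibroblast markers 21 were measured, with summed values of 6331 and 6593 in EV and 7608 and 7406 in OE. Col1a1 and Fbln2 were the 2 that rose (list median 0.20, with 18 of 21 above 0). Of all genes 0.312% were called higher and 49.7% were above 0. The higher sum moves with the matrix genes above, some of which it holds, and its part in their change was not tested. Markers of other cells were low. Of 12 epithelial markers 2 were measured, Krt18 at 6.42 and 6.37 in EV and 8.03 and 7.99 in OE and Krt19 at 1.28 and 6.37 in EV and 4.82 and 1.33 in OE, with summed values of 7.70 to 12.7 in EV and 9.32 to 12.8 in OE. Of 12 macrophage and leukocyte markers Csf1r (5.13 and 2.55 in EV and 6.42 and 9.32 in OE) and Cd14 (11.6 and 8.92 in EV and 8.03 and 5.33 in OE) were measured, with sums of 11.5 to 16.7 in EV and 14.5 to 14.6 in OE. Of 12 neural markers Tubb3 (14.1 and 12.7 in EV and 28.9 and 22.6 in OE) and Map2 (8.99 and 3.82 in EV and 3.21 and 6.66 in OE) were measured, with sums of 16.6 to 23.1 in EV and 29.3 to 32.1 in OE. Of 8 adipocyte markers Fabp4 (6.42 and 6.37 in EV and 3.21 and 2.66 in OE) and Lpl (2.57 and 2.55 in EV and 4.82 and 3.99 in OE) were measured, with sums of 8.92 to 8.99 in EV and 6.66 to 8.03 in OE. None of these 8 genes passed the threshold. The 8 endothelial and 10 muscle markers are not among the genes analysed here.

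The change in mRNA was not spread evenly over the genome, a pattern chosen after the values were seen. Of 20 chromosomes with 100 or more genes, 16 had a median log2 fold change within 0.1 of 0. Chromosome 1 had a median of 0.22 over 513 genes, with 71.5% above 0, 7 higher calls and 1 lower. Col6a3, Gpc1 and Pkp1, described above among the matrix and adhesion genes, are among the 7. Chromosome 10 had a median of -0.28 over 453 genes, with 24.5% above 0, no higher call and 6 lower, namely Eef2, Esyt1, Aes, Mon2, Atp5b and Hdac2. Chromosome 13 (-0.17 over 371 genes) and chromosome 6 (-0.14 over 432) were also lower. The medians of single libraries, as deviations from each gene's mean, stood for chromosome 1 at -0.13 and -0.11 in the EV libraries against 0.08 and 0.14 in the OE libraries. For chromosome 10 they stood at 0.11 and 0.10 (EV) against -0.12 and -0.14 (OE). On both chromosomes the 2 libraries of a group were close together and the groups were apart. Among genes with a mean value of at least 50 the medians were 0.26 (101 genes) and -0.28 (141 genes), about the same as over all genes of these chromosomes.

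**Figure D4:**
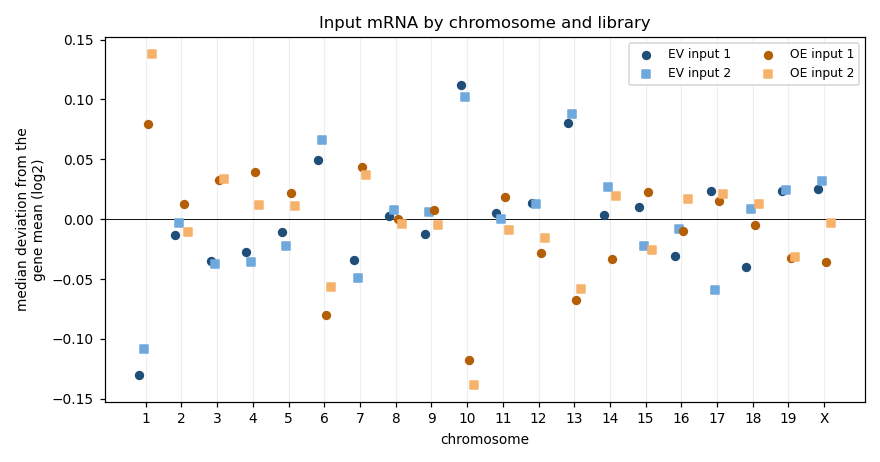
Median deviation of the genes of each chromosome from their mean over the 4 libraries (y axis, log2) in each input library, for 20 chromosomes (x axis). The OE points of chromosome 1 lie above its EV points and those of chromosome 10 below, while most other chromosomes have all 4 points near 0.

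Neighbouring genes moved together in places, as a running median over 15 genes with a mean value of at least 10 shows. It lay between -0.32 and 0.28 in 95% of 6860 windows, and its extremes were -0.63 and 0.74. On chromosome 6, 12 such genes from Mdfic to Wasl (15720661 to 24665009) had a median of 0.77, and 11 of them were above 0. Of these, Tes, Cav1, Met and Capza2, all described above, passed the threshold. Cav2, the gene next to Cav1, was the exception with 293 and 309 in EV and 222 and 274 in OE (log2 fold change -0.29, adjusted p = 0.409). The rest of chromosome 6 had a running median mostly below 0. On chromosome 1, 25 genes from Eif4e2 to Ppp1r7 (87213914 to 93373489) had a median of 0.48, with 21 above 0, and Col6a3 and Gpc1 lie among them. Of the genes called by DESeq2, Tes, Col6a3 and Gpc1 thus lie in the runs on chromosomes 6 and 1, and Spp1, on chromosome 5, does not. On chromosome 10, 15 genes from Cdc40 to Atg5 (40831621 to 44364291) were all below 0 with a median of -0.62, and none passed alone. In a second run of 14 genes there, from Timeless to Rps26 (128232065 to 128626747), 13 were below 0 (median -0.51), and Esyt1 passed. Without each library in turn the medians of these 4 runs were 0.69 to 0.78, 0.49 to 0.53, -0.69 to -0.41 and -0.52 to -0.39. Windows were picked by the same values that they show, so these are descriptions, and why neighbouring genes moved together was not tested. With each gene centred on the median of its chromosome, 41 genes passed, of which 34 were among the 47 (25 higher and 9 lower).

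**Figure D5:**
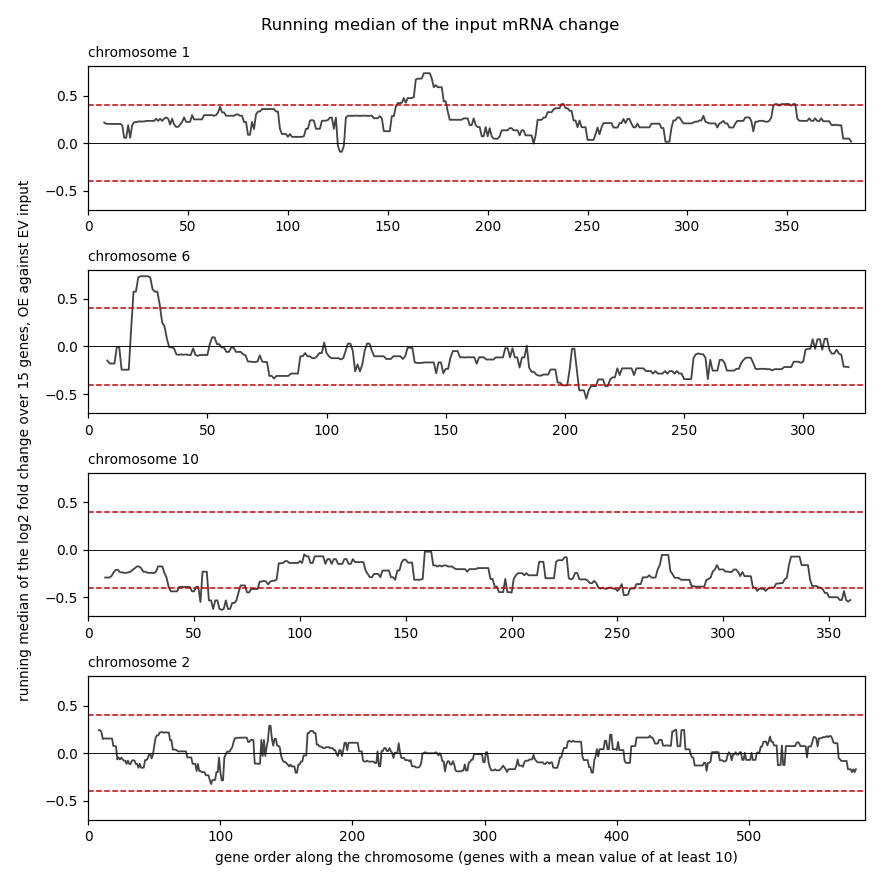
Running median of the log2 fold change of OE against EV over 15 neighbouring genes (y axis) in gene order (x axis) along chromosomes 1, 6, 10 and, for comparison, 2, with dashed lines at -0.4 and 0.4. One stretch of chromosome 6 reaches 0.74 while the rest lies mostly below 0, chromosome 1 lies above 0 and chromosome 10 below 0 along nearly all their length.

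Properties of the transcripts themselves differed little with the change when all libraries were used. Genes were split into 5 equal bins by the length of their longest transcript, and the medians of the log2 fold change ran from 0.038 in the bin of the shortest to -0.045 in that of the longest. By GC content the medians of the bins lay between -0.019 and 0.014. Without the first OE library the median was 0.038 in the bin of lowest GC and -0.027 in that of highest GC. Without the second OE library these were -0.051 and 0.042, the other way round. AGA, an arginine codon whose tRNA is one that METTL1 is known to methylate, made up a median of 1.06% of codons over 9284 genes with a coding sequence. By the share of AGA codons the medians of the bins lay between -0.013 and 0.0042. Without the first OE library the median was -0.021 in the lowest bin and 0.039 in the highest. Without the second OE library these were 0.034 and -0.032. The 29 higher genes had a median AGA share of 0.824% and the 18 lower genes of 1.51%, which is given as a description of 47 genes and was not tested.

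EdgeR called 17 genes that limma did not. For 16 of them the adjusted limma p was between 0.0501 and 0.0803, as for the chromatin remodeller Smarcc2 (142 and 129 in EV and 93.1 and 75.9 in OE, adjusted p = 0.0605) and the receptor Fgfr1 (105 and 116 in EV and 185 and 157 in OE, adjusted p = 0.0582), both named after their values were seen. The other was the histone gene Hist1h2af, also named after its values were seen, with 44.9 and 35.7 in EV and 27.3 and 1326 in OE (log2 fold change 2.24, adjusted p = 0.239). Its high value came from the second OE library alone, while the first OE library was below both EV libraries. Histone genes have near-identical copies, so this value is uncertain.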

How the data were processed

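Input RNA libraries of MEF with an empty vector (EV, 2 libraries) or with METTL1 and WDR4 (OE, 2 libraries) were compared. Bowtie and the mouse build mm10 are named in the submitters' processing notes. Not given in the sources used here are the version of Bowtie, the program that counted reads, whether it used strand, and what it did with reads that match in several places. The table deposited by the authors gives 1 signal value per gene and library, which is a read count divided by a size factor. Dividing each column by its smallest value gave whole reads for 100% of the values (tolerance 1e-06). The log2 fold change and p-value of translational efficiency deposited by the authors were not used. The table has 9309 lines, of which 2 are blank.

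Identifiers were matched without version to GENCODE mouse release M21, where 9306 of 9307 matched, and coordinates are 1-based. Limma 3.58.1 in R 4.3.3 was fitted to log2(value + 1) of the 4 input libraries with a mean-variance trend and no covariate. P-values are two-sided with Benjamini-Hochberg adjustment over all 9307 genes and a threshold of 0.05. An exact permutation test of 2 against 2 libraries cannot go below a two-sided p of 0.333, so none was used. EdgeR 4.0.16 and DESeq2 1.42.0 on the recovered reads were alternatives. Limma was tried on simulated data of 9032 genes with these library sizes and the same spread for all genes (edgeR common dispersion 0.00476). Changes were put only into genes with a mean value of at least 10. Limma recovered 39.4% of 99 genes changed 2-fold and 83.5% of 97 changed 4-fold, with 1 false call. Changes in genes with lower values, and a larger spread between cultures or clones, were not simulated. A deviation is a log2 value minus the mean of its gene, centred on the median of its library. The members, the 49 gene lists (47 with a measured member), the motifs and the rule for named genes were chosen with earlier results of these data known. The rule named the 15 genes with the smallest p in each direction that passed with limma and edgeR without overlap, the 6 with the highest mean in each direction, Mettl1 and Wdr4, up to 4 called members of each list, and the 2 members with the highest mean of a list without a call. One gene that this rule names is not reported here. Intervals cover counting error only and do not allow for the absence of genes without reads in a library.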

Additional observations from a re-analysis of the deposited data

How the results depend on the processing

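The count of 47 genes (29 higher, 18 lower) stayed within 1.5 times of itself with edgeR (64), limma voom (61), pseudocounts of 0.5 (46) and 4 (55), a mean value of at least 10 (68), scaling to equal read totals (62), TMM scaling (43), centring within chromosomes (41) and only genes of unique sequence (33, with 11 lower). The centring, the limit to unique sequence, the robust prior and edgeR without single libraries were chosen after seeing the data. DESeq2 called 4 genes (4 higher, 0 lower, 159 at an unadjusted p under 0.05), and quantile normalization 0 (0 higher, 0 lower), for causes not tested. With a robust prior there were 115 (68 higher, 47 lower). With the replicate number as a block there were 165 (98 higher, 67 lower), which held all 47. Whether the numbers pair the libraries is not given by the labels. Deviations of same-numbered libraries correlated by only 0.027, but with so few reads per gene counting error could hide a shared batch, so this cannot decide it. In the limma and edgeR fits without 1 library, each with fewer libraries, the count was 0 to 49, with 0 to 41 higher and 0 to 15 lower.

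No named gene past the threshold changed direction in any setting. For the fits without 1 library this follows from groups that do not overlap. Among named genes that did not pass, the log2 fold change crossed 0 in the fits without 1 library, with ranges of -0.023 to 0.43 for Atf4, -0.093 to 0.041 for Fth1, -0.056 to 0.0089 for Hsp90ab1, -0.13 to 0.0015 for Hsp90b1, -1.43 to 1.08 for Krt19, -0.059 to 0.088 for Lamp1, -0.97 to 0.41 for Map2, -0.21 to 0.063 for mt-Nd2, -0.19 to 0.070 for Myh9, -0.089 to 0.10 for Nsun2, -0.094 to 0.013 for Piezo1, -0.084 to 0.038 for Rpl8, -0.15 to 9.1e-05 for Rplp0, -0.0029 to 0.18 for Tcp1 and -0.0056 to 0.20 for Trp53. With values centred within chromosomes it was 0.029 for Fth1 and 0.18 for Hsp90b1. With edgeR it was -0.00065 for Lamp1 and -0.0089 for Nsun2. Nsun2 was -0.0053 with voom, -0.0036 with equal read totals, -0.0072 with TMM scaling and -0.026 after quantile normalization, where Lamp1 was -0.0028, mt-Cytb -0.041 and mt-Nd2 0.098. Of 42 gene list medians, 17 changed sign in at least 1 setting, and none of these was further from 0 than 0.24. The cause was not tested. Depth limits genes with few reads, since between 29% and 36% of genes had under 10 reads in a library.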
